A study of Arabidopsis thaliana with 4 samples.

Results

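Abscisate and auxin can be stored as glucose conjugates, and 9 Arabidopsis thaliana genes of UDP-glucosyltransferases (UGTs) that accept one or the other hormone are described here, of 33602 genes in the tables. They were picked by locus from what the enzymes are known to do: UGT75B1 (AT1G05560), UGT75B2 (AT1G05530), UGT71B6 (AT3G21780), UGT71B7 (AT3G21790), UGT71B8 (AT3G21800) and UGT71C5 (AT1G07240) for abscisate, and UGT74E2 (AT1G05680), UGT74D1 (AT2G31750) and UGT84B1 (AT2G23260) for auxins. The choice was made with earlier results of these data known. The RNA came from whole seedlings at 12 das, as the labels write the age, of Col-0 (WT) and of a transgenic line, called line 7 in the design text, in which the small open reading frame sORF1511 is overexpressed. Each genotype had 2 libraries, each from 5 pooled seedlings. A single overexpressor line was profiled, the promoter of its transgene is not given in the sources used here, and line and transgene effects cannot be told apart. The sORF1511 transcript was not analysed here. The labels speak of biological replicates but not of separate cultures, so p-values measure the spread between these pools only.

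A UGT moves glucose from UDP-glucose onto a small molecule. Joined to glucose, abscisate is inactive and can be kept in the vacuole, from which beta-glucosidases release it again, while hydroxylases of the CYP707A family destroy it for good. Auxins are likewise joined to glucose by UGTs and to amino acids by GH3 enzymes, and amidohydrolases of the ILR1 family free the hormone from amino acid conjugates. In seedlings both hormones set growth, and abscisate rises under drought.

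Total reads ranged from 13974460 to 25740234 per library. WT replicate 1 stood apart, with 28.1% of its reads in chloroplast ribosomal RNA genes, against 0.956% to 1.29% in the other libraries. Levels between libraries are therefore given as CPM, reads relative to a TMM-scaled library size, which resists such a shift, and levels between genes as CPM per kilobase of effective length. A difference is the log2 fold change of overexpressor over WT ± SE from edgeR. Of the 9 genes, 6 had enough reads for the test and 3 did not. UGT71B6 and UGT74E2 reached the filter level, 0.465 CPM before TMM scaling, in each overexpressor library but in 0 and 1 of the 2 WT libraries, so these 2 genes entered the test through the genotype in which they were higher.

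Among the 6 genes tested, UGT75B1, UGT74E2, UGT71B7, UGT71B6 and UGT71C5 had higher values in each overexpressor library than in each WT library, by an estimated 3.9-fold, 14.7-fold, 2.16-fold, 5.86-fold and 1.31-fold. Of all genes tested, 28.7% were likewise higher without overlap and 28.4% lower. The interval of UGT71C5 included no difference, and UGT74D1 had overlapping values. UGT75B2, UGT71B8 and UGT84B1 were at or close to 0 reads and were not tested. Of these, UGT75B2 was lower without overlap, at 0.179 and 0.181 CPM in WT against 0.156 and 0.0365 CPM in the overexpressor. Its WT replicate 1 and overexpressor replicate 2, at 2 and 1 reads, were under the 3 reads taken as measured. In the quasi-likelihood test of edgeR, with p adjusted by Benjamini-Hochberg over all 19474 genes tested, 0 of the 6 passed 0.05, against a background of 0.139% of genes that rose and 0.0103% that fell. At an unadjusted p below 0.05, 4 of the 6 were higher and 0 lower, where 11.9% of all genes were higher and 9.81% lower. These 4 include UGT71B6 and UGT74E2, which could be tested only because they were higher in the overexpressor. DESeq2 called 3 of the 9 genes, limma-trend on log2(TPM + 1) called 2 and limma-voom 0, each with higher values in the overexpressor. Over all genes, DESeq2 called 912 higher and 307 lower, limma-trend 250 and 24, and limma-voom 0 and 0. In edgeR's main test these numbers were 27 and 2. Since whole seedlings were pooled, fewer cells of a type and less RNA per cell cannot be told apart.

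Per length, the order of the genes differed between genotypes. In WT, UGT74D1 stood first at 29.8 and 35.9 CPM per kilobase in replicates 1 and 2. UGT75B1 followed at 8.04 and 12.0, and UGT71B7 at 6.73 and 10.1, so that these neighbours in the order overlapped. UGT71C5 was next at 3.9 and 4.79, then UGT74E2 at 0.395 and 1.04. The remaining 4 genes were all below 0.2 CPM per kilobase in each WT library, and UGT75B2 at 0.148 and 0.149 could not be ranked against UGT71B6 at 0.0671 and 0.190. In the overexpressor, UGT75B1 took the first place at 39.1 and 39.8 CPM per kilobase, above UGT74D1 at 31.8 and 36.4. UGT71B7 came next at 16.6 and 20.2, and UGT74E2 moved up to the fourth place at 14.8 and 8.75. UGT71C5, at 5.86 and 5.60, came after it.

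**Figure D1:**
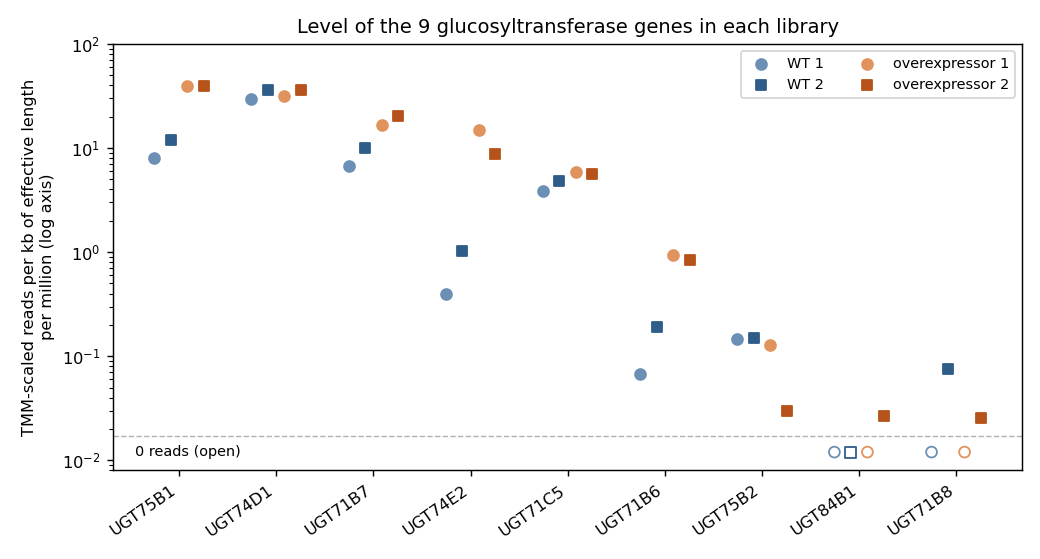
Level of each gene in each of the 4 libraries, as TMM-scaled reads per kilobase of effective length and library size (CPM per kilobase) on a log axis, with open symbols for libraries with 0 reads. The overexpressor symbols of UGT75B1, UGT71B7, UGT74E2, UGT71C5 and UGT71B6 lie above both WT symbols. For UGT74D1, overexpressor replicate 1 lies between the WT symbols, and overexpressor replicate 2, at 36.4, just above the higher one, at 35.9. The overexpressor symbols of UGT75B2 lie below both WT symbols, at 1 to 5 reads per library, and UGT84B1 has a read in 1 library only.

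Summed over the 9 genes, the level per length was 49.1 and 64.2 CPM per kilobase in the WT libraries and 109 and 112 in the overexpressor libraries. UGT74D1 made up 60.7% and 56.0% of that sum in WT and 29.2% and 32.6% in the overexpressor. UGT75B1 made up 16.4% and 18.6% in WT and 35.8% and 35.7% in the overexpressor. UGT74E2 held 0.805% and 1.61% of the sum in WT and 13.5% and 7.83% in the overexpressor. The share of UGT74D1 was lower in the overexpressor while its own level overlapped between genotypes.

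**Figure D2:**
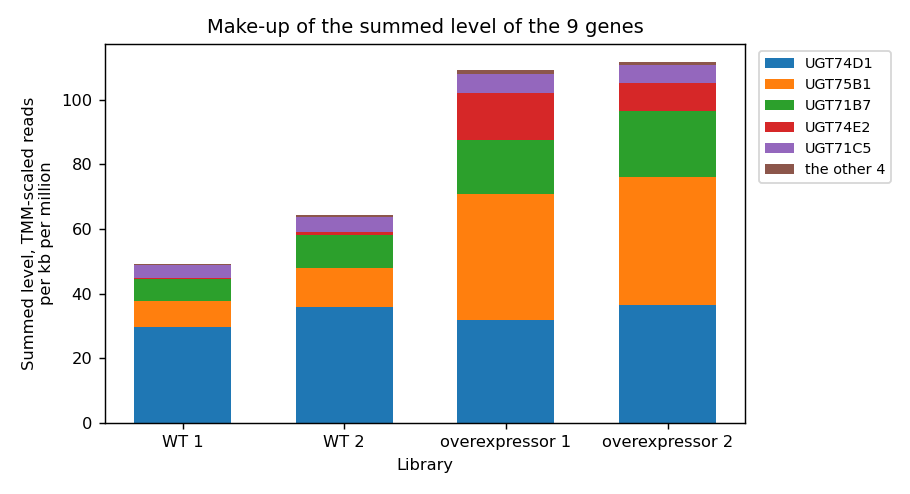
Summed level per length of the 9 genes in each library, stacked by gene, in CPM per kilobase. The UGT74D1 segment is of similar height in all 4 bars, and the taller overexpressor bars, 109 and 112 against 49.1 and 64.2, hold larger segments of UGT75B1, UGT71B7 and UGT74E2.

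Of the abscisate group, UGT75B1 was the most abundant. Its enzyme accepts abscisate in vitro, makes the glucose ester of p-aminobenzoate, and was found with callose synthase at the forming cell plate, and its gene is known to respond to salicylate. WT replicates 1 and 2 stood at 12.0 and 17.9 CPM and the overexpressor replicates at 58.4 and 59.5 CPM, means of 14.9 ± 4.16 and 59.0 ± 0.800 CPM (SD, n = 2 each). The genotypes did not overlap, and the overexpressor pools lay close together. The log2 fold change was 1.96 ± 0.20 (95% interval 1.46 to 2.47), and edgeR's adjusted p was 0.0521, just short of the threshold. The adjusted p was 0.00692 without WT replicate 1 and 0.00108 without WT replicate 2, but 0.178 without overexpressor replicate 1 and 0.329 without overexpressor replicate 2.

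UGT75B2, whose enzyme closely resembles UGT75B1 and also takes abscisate in vitro, was hardly read, with 2 and 5 reads in the WT pools and 3 and 1 in those of the overexpressor. With 7 reads in WT and 4 in the overexpressor the ratio was 0.476 (95% exact counting interval 0.102 to 1.87), an interval that includes equal levels, so a difference could not be seen at this depth. Of the reads of this sister pair, UGT75B2 had 1.47% (95% exact binomial interval 0.179 to 5.21) in WT replicate 1 and 1.0% (0.326 to 2.32) in WT replicate 2. In the overexpressor the share was 0.266% (0.0550 to 0.777) in replicate 1 and 0.0612% (0.00155 to 0.341) in replicate 2. Nearly all reads of the pair thus belonged to UGT75B1 in every library. Counting intervals cover counting error only.

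UGT71B6, UGT71B7 and UGT71B8 lie next to each other on chromosome 3. The UGT71B6 enzyme prefers the natural form of abscisate, and UGT71B7 and UGT71B8 are its close homologs. UGT71B7 stood at 8.94 and 13.5 CPM in the WT pools, against 22.1 and 26.9 CPM in the overexpressor pools, means of 11.2 ± 3.19 and 24.5 ± 3.4 CPM (SD, n = 2 each). All values were higher in the overexpressor, with a log2 fold change of 1.11 ± 0.23 (95% interval 0.53 to 1.69) and an adjusted p of 0.115 by edgeR. Without WT replicate 1 and WT replicate 2 the adjusted p was 0.0735 and 0.0173, and without overexpressor replicates 1 and 2 it was 0.337 and 0.64.

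UGT71B6 had 1 and 7 reads in the WT pools, and 24 and 31 in those of the overexpressor. That is 0.0894 and 0.253 CPM for WT and 1.25 and 1.13 CPM in the overexpressor. WT replicate 1 was below its level of 3 reads, 0.268 CPM, and WT replicate 2 above its own, 0.108 CPM. The gene was low throughout, and its libraries did not overlap between genotypes. The log2 fold change was 2.55 ± 0.53 (95% interval 1.2 to 3.91), with an adjusted p of 0.116 by edgeR. The log2 fold change was 3.64 without WT replicate 2, a value that rests on the 1 read of WT replicate 1. On the log2(TPM + 1) scale, which shrinks the change of low genes, the difference was 0.79. UGT71B8 had 0 and 3 reads in the WT pools, against 0 and 1 after overexpression, at or under the level taken as measured, and no fold change is given.

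UGT71B7 dominated the tandem in all libraries. Of the reads of the 3 genes, UGT71B6 had 0.990% (95% exact binomial interval 0.0251 to 5.39) in WT replicate 1 and 1.83% (0.740 to 3.74) in WT replicate 2. Its share was 5.35% (3.45 to 7.85) in overexpressor replicate 1 and 4.03% (2.75 to 5.67) in overexpressor replicate 2. Both overexpressor shares were above both WT shares, although the intervals of single libraries overlapped. With 2 libraries against 2 an exact permutation test cannot give a two-sided p below 0.33, so the shares were not tested. All 36 deposited read estimates of the 9 genes were whole numbers within 0.001. How reads shared by similar copies were counted is not given in the sources used here, so values within the tandem carry that uncertainty.

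UGT71C5, an enzyme that conjugates abscisate in the plant, lies beside UGT71C4 and UGT71C3 on chromosome 1. Its WT values of 6.26 and 7.70 CPM and its overexpressor values of 9.41 and 9.01 CPM did not overlap. The log2 fold change was 0.39 ± 0.17 with a 95% interval from -0.04 to 0.82, and edgeR's adjusted p was 0.26. A fold change above 1.76 lay outside that interval. UGT71C4 next to it had a log2 fold change of 0.47 ± 0.13 and an adjusted p of 0.161, and UGT71C3 one of -0.30 ± 0.52 and an adjusted p of 0.761, both from the same edgeR test.

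Of the auxin group, UGT74E2 differed most. Its enzyme glucosylates indole-3-butyric acid, a storage form of auxin, and the gene is known for strong induction by hydrogen peroxide. The WT pools had 6 and 39 reads of it, or 0.536 and 1.41 CPM, and the overexpressor pools 387 and 327 reads, or 20.1 and 11.9 CPM. Every overexpressor value was several times the highest WT value, while the libraries within each genotype also differed from each other. The log2 fold change was 3.88 ± 0.46 (95% interval 2.69 to 5.06), with an adjusted p of 0.0634 by edgeR. The log2 fold change was 4.87 without WT replicate 2, which leaves the 6 reads of WT replicate 1 as the only WT value. Without WT replicate 1 the adjusted p was 0.0365 and without WT replicate 2 it was 0.0173, against 0.218 without overexpressor replicate 1 and 0.318 without overexpressor replicate 2.

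UGT74D1, an enzyme that glucosylates auxins, stood at 43.0 and 52.0 CPM in the WT pools, against 46.1 and 52.7 CPM in the overexpressor pools. The libraries overlapped, and the log2 fold change of 0.05 ± 0.13 had a 95% interval from -0.29 to 0.39, so that changes beyond 1.31-fold upward or to below 0.819 of the WT level lay outside it. Its direction turned without WT replicate 1, at -0.06, and without overexpressor replicate 2, at -0.04. UGT84B1, whose enzyme takes indole-3-acetic acid in vitro, had 0 reads in each WT library and in overexpressor replicate 1, and 1 read in overexpressor replicate 2. A count of 0 allows up to 3 reads, which is 0.268 and 0.108 CPM in WT replicates 1 and 2.

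**Figure D3:**
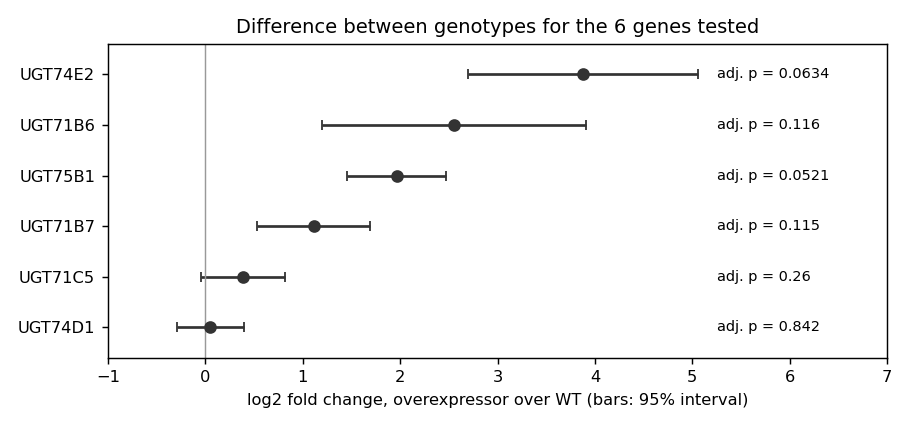
Log2 fold change of overexpressor over WT with its 95% interval for the 6 genes tested, with the adjusted p of edgeR's quasi-likelihood test. The intervals of UGT74E2, UGT71B6, UGT75B1 and UGT71B7 lie above 0, those of UGT71C5 and UGT74D1 include it, and the adjusted p values run from 0.0521 to 0.842.

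Over the 6 genes tested the median log2 fold change was 1.54, against -0.01 over all genes tested. The genes were chosen with earlier results of these data known, so the choice itself may have favoured such a difference. Over the 4 that reached the filter level in each WT library it was 0.75. At least 2-fold higher were 4 of the 6, against 4.42% of all genes tested. That count includes UGT71B6 and UGT74E2, which entered the test through the overexpressor. The WT pools differed in the same direction. Replicate 2 of WT exceeded replicate 1 for all 6 tested genes, by log2 ratios from 0.27 for UGT74D1 to 1.26 for UGT74E2. The share of all genes with that direction was not counted. In the pathway lists described below, median ratios were 0.19 for related glucosyltransferases and 0.31 for abscisate hydroxylases. They were 0.60 for auxin conjugation and oxidation, 0.33 for auxin conjugate hydrolysis and -0.07 for abscisate release and transport.

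Genes beside these loci on the chromosome were looked at as well. AT1G05675, the UGT gene beside UGT74E2 on chromosome 1, had 1 and 5 reads in the WT pools, against 3 and 5 after overexpression, too few for the test. BT3, on the other side of UGT74E2, had a log2 fold change of -0.26 ± 0.32 (adjusted p = 0.663 by edgeR). CALS1, a callose synthase gene beside UGT75B1, went from 14.4 and 15.9 CPM for WT to 9.99 and 9.66 CPM for the overexpressor, a log2 fold change of -0.63 ± 0.13 and an adjusted p of 0.116 in the same test. UGT84B2, beside UGT84B1, had 0 reads in all 4 libraries. On the other side of UGT75B1, AT1G05550 had a log2 fold change of 0.73 ± 0.55. The genes beside UGT75B2, AT1G05520 and AT1G05540, had -0.28 ± 0.14 and 0.15 ± 0.16, and AT3G21770 beside UGT71B6 had -0.35 ± 0.55. NPC1 beside UGT71C5 had 0.44 ± 0.16, AT3G21810 beside UGT71B8 0.40 ± 0.15 and AT2G31740 beside UGT74D1 -0.38 ± 0.11. Adjusted p of these neighbours ran from 0.161 to 0.736 by edgeR. ARI10 and AT2G23270 had at most 2 reads per library.

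The reference lists loci that overlap UGT75B1, UGT71B6 and UGT74D1, each annotated as a long noncoding RNA. AT1G05562, a natural antisense transcript of UGT75B1, stood at 13.2 and 13.6 CPM in the WT pools, against 15.55 and 14.99 CPM in the overexpressor pools. Its log2 fold change was 0.18 ± 0.12 (95% interval -0.11 to 0.48), an interval that does not reach that of UGT75B1 itself, although the difference between the 2 fold changes was not tested. AT3G21781, which overlaps UGT71B6, had 0 reads in each WT library and 1 in each overexpressor library. AT2G31751, which overlaps UGT74D1, had between 1 and 11 reads. The kit marks strand per the labels, but whether counting used it is not given, so reads of overlapping genes may be mixed.

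Other genes of the same pathways were counted from 5 lists with 49 genes. Abscisate hydroxylases went both ways. CYP707A1 stood at 3.76 and 5.14 CPM in the WT pools, against 18.4 and 47.9 CPM in the overexpressor pools, a log2 fold change of 2.87 ± 0.51 (adjusted p = 0.094 by edgeR). CYP707A4 had one of 0.97 ± 0.30, CYP707A2 one of -0.04 ± 0.21 and CYP707A3 one of -0.67 ± 0.23. Of these 4 genes 0 passed the adjusted threshold. At an unadjusted p below 0.05, 2 were higher and 1 lower, against 11.9% and 9.81% of all genes tested. The list median was 0.47.

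Genes that release abscisate from its glucose ester or carry the ester into the vacuole had a median log2 fold change of 0.22 over 5 genes, with 0 past the adjusted threshold. BGLU18, the beta-glucosidase that frees abscisate in the endoplasmic reticulum, stood at 88.1 and 99.4 CPM in the WT pools, against 160.1 and 159.6 CPM in the overexpressor pools, a log2 fold change of 0.77 ± 0.10 (adjusted p = 0.0663 by edgeR). BGLU33, its vacuolar counterpart, stood at 25.8 and 35.4 CPM in the WT pools, against 18.2 and 20.0 CPM in the overexpressor pools, with -0.69 ± 0.18 (adjusted p = 0.143 in that edgeR test). These glucosidases had values in opposite directions. BGLU10 and the transporters ABCC1 and ABCC2 had log2 fold changes from -0.15 to 0.27.

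Auxin genes outside the UGT family also gave 0 past the adjusted threshold. Of 11 genes for conjugation to amino acids, oxidation or methylation 9 were tested, with a median of -0.24 and 0 at an unadjusted p below 0.05. Among those with the smallest p, the GH3 genes GH3.9 and DFL1 had log2 fold changes of 0.30 ± 0.16 and 0.49 ± 0.28, GH3.17 had -0.46 ± 0.26 and the methyltransferase gene IAMT1 -0.80 ± 0.53. Of 7 amidohydrolase genes 6 were tested, with a median of 0.23. At an unadjusted p below 0.05, 3 were higher, against 11.9% of all genes tested. These 3 were ILL6 at 1.05 ± 0.19, ILR1 at 1.56 ± 0.37 and IAR3 at 0.44 ± 0.12, with adjusted p of 0.0995, 0.129 and 0.158 by edgeR.

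Among 22 related glucosyltransferase genes, 19 were tested, with a median of 0.36. One of them, UGT74F2, a salicylate glucosyltransferase gene, rose by 3.21 ± 0.18 (adjusted p = 0.0344 by edgeR). The call was lost with limma-voom (adjusted p = 0.0598) and without overexpressor replicate 1 or 2 (adjusted p of 0.119 and 0.221 by edgeR). Its WT values were 6.17 and 8.68 CPM and its overexpressor values 68.8 and 71.0 CPM. At an unadjusted p below 0.05, 9 were higher and 1 lower, against 11.9% and 9.81% of all genes tested. Without overlap 11 were higher and 2 lower, against 28.7% and 28.4%. UGT84A3, of a group that acts on hydroxycinnamates, had a log2 fold change of 1.13 ± 0.16, and IAGLU, named for an indole-3-acetate glucosyltransferase, had 0.52 ± 0.10. UGT71B1 and HYR1, in the same stretch of chromosome 3 as UGT71B6, had 0.49 ± 0.11 and 0.38 ± 0.10. Except for UGT74F2, the relatives tested differed by less than UGT75B1 did.

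**Figure D4:**
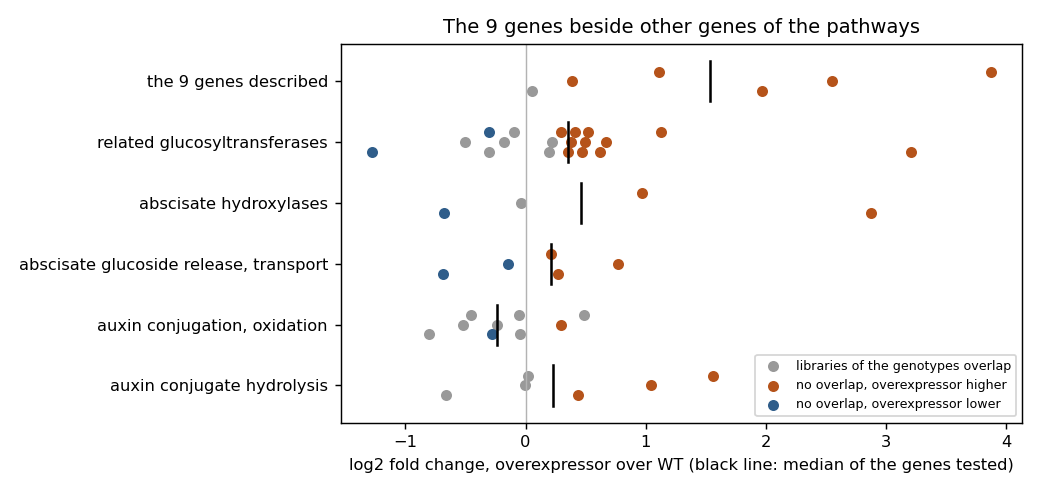
Log2 fold change of overexpressor over WT for each gene tested, by list, with a black line at the median of the list and colour for whether the libraries of the genotypes overlap. The 6 genes described run from 0.05 to 3.88, with UGT74E2 and UGT71B6 tested only through their overexpressor values, and the auxin conjugation list has a median of -0.24.

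The genes whose profile over the 4 libraries came closest to UGT74E2, by Euclidean distance of centred log2 CPM among 18150 candidates, were MAPKKK18, HAI1 and AT3G63380, at distances of 0.60, 0.65 and 0.66. MAPKKK18, a kinase of abscisate signalling, and HAI1, a phosphatase induced by abscisate, had log2 fold changes of 3.65 and 3.93. Closest to UGT71B6 were the beta-amylase gene BAM1, the kinase gene MPK11 and UGT73C7, at distances from 0.11 to 0.13. The WT part of that profile rests on 1 and 7 reads, where the prior count of 2 weighs heavily. Its distances are therefore not comparable with those of UGT74E2. Closest to UGT74D1 were LON4, RMA1 and MGT2, at distances from 0.02 to 0.03. With 4 libraries many profiles are alike, so these are descriptions only.

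Markers of tissues were compared beside these results. Endodermis markers were lower in the overexpressor, with a summed level of 16.7 and 29.4 CPM for WT, against 5.41 and 6.67 CPM for the overexpressor, and 4 of 4 tested markers lower, of 7. Root hair markers summed to 1.34 and 17.6 CPM for WT, against 0.26 and 1.79 CPM for the overexpressor, with 1 of 6 tested and lower, EXPA18 at 0 reads in WT replicate 1 and RSL4 at 0 in WT replicate 1 and overexpressor replicate 1. Green shoot markers summed to 27293 and 31541 CPM for WT, against 35363 and 33044 CPM for the overexpressor, and 5 of 6 were higher. The 4 phloem markers summed to 262 and 342 CPM for WT, against 280 and 296 CPM for the overexpressor, with 2 higher and 2 lower. Of 3 shoot apex markers STM alone was tested, at 0.72 ± 0.19, and CLV3 and WUS had at most 2 reads per library. In none of these lists did a gene pass the adjusted threshold of edgeR's test. At an unadjusted p below 0.05, 3 endodermis markers and 1 phloem marker were lower and 1 green shoot marker and STM higher. Of all genes tested, 9.81% were lower and 11.9% higher at that level. In direction alone, 9440 of the 19474 genes tested were higher and 10034 lower. The part that a different share of root tissue has in the values of the 9 genes was not tested.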

How the data were processed

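Each library has its own table per gene, in which the authors deposited estimated counts, TPM, length and effective length, per the file headers. Deposited TPM is relative to effective length within a library. Quantifier, build and annotation are not stated in what was used here, while DESeq2 is listed, with no version, per the submitters' processing notes. With no build named, no coordinates or sequences are printed, the TAIR10.1 reference served for names and gene order only (32835 of 33602 identifiers matched), and the planned comparisons of promoters and proteins were not made.

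After rounding, the estimated counts went into edgeR 4.0.16 under R 4.3.3, with filterByExpr (minimum count 10, minimum total 15), TMM and the quasi-likelihood test, and p adjusted by Benjamini-Hochberg over 19474 genes. The SE is edgeR's unshrunk coefficient divided by the square root of F, and 95% intervals use it around edgeR's slightly shrunken fold change. A level under 3 reads was not taken as measured. The script was checked on simulated data. Alternatives used DESeq2 1.42.0, limma 3.58.1 and other scalings and filters, a pseudocount of 1 for TPM, and each library left out in turn, when the remaining library of that genotype is assumed to vary as much as the other group. The profile comparison used log2 CPM with a prior count of 2 and genes with a mean of at least 1 CPM.

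The members and lists were chosen with earlier results of these data known. All 9 members are named. From the pathway lists the rule names genes past the threshold and up to 5 per list by unadjusted p. It also names the 3 genes most like UGT71B6, UGT74E2 and UGT74D1. Neighbours, overlapping loci and UGT71C3 were added after their values were seen.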

Additional observations from a re-analysis of the deposited data

How the results depend on the processing

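The numbers of genes past the threshold depended strongly on the setting, and the cause was not tested. Over all genes tested, 27 were higher and 2 lower by edgeR, against 912 and 307 with DESeq2, 0 and 0 with limma-voom, 250 and 24 with limma-trend on log2(TPM + 1), and 570 and 239 with scaling by library size only. The counts were 305 and 57 with no filter on low counts, 65 and 10 with at least 1 CPM in 2 libraries, and 163 and 21 with organelle genes left out. They were 27 and 2 with RLE size factors in place of TMM, and 19 and 2 with effective length as an offset. With each library left out in turn they ran from 0 to 1189 higher and from 0 to 1014 lower. Of the 9 glucosyltransferase genes, 0 passed in edgeR's main test, and 0 with limma-voom, RLE size factors or effective length as an offset. The number higher was 3 with DESeq2, 4 with scaling by library size only, 2 with no filter, 1 with at least 1 CPM in 2 libraries, 2 with limma-trend, 2 without organelle genes, and 0 to 3 with a library left out. Of the 49 pathway genes, 1 was higher, also with RLE size factors, effective length as an offset or at least 1 CPM in 2 libraries. That number was 8 with DESeq2 (and 1 lower), 0 with limma-voom, 2 with limma-trend, 5 with scaling by library size only, 4 with no filter and 3 without organelle genes. With a library left out 0 to 5 were higher and 0 to 2 lower. With the replicate number as a block, 329 genes were higher and 43 lower, with 3 of the 9 glucosyltransferase genes and 3 pathway genes higher. The labels say nothing of what a shared number means. The deviations of same-numbered libraries had a correlation of 0.058 across genes. With 2 libraries a genotype, and WT replicate 1 apart from the rest, this value cannot decide whether the libraries were paired.

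The sizes moved less. UGT75B1 ranged from 1.74 to 2.30 on the log2 scale over all settings, UGT74E2 from 2.95 to 4.87, UGT71B7 from 0.88 to 1.46 and UGT71C5 from 0.27 to 0.56. UGT71B6 ranged from 0.79 to 3.64. UGT74D1 had -0.062 without WT replicate 1, -0.042 without overexpressor replicate 2 and 0.20 without WT replicate 2. Adjusted p ran from 2.7e-16 to 0.329 for UGT75B1, from 1.1e-13 to 0.318 for UGT74E2 and from 0.00174 to 0.64 for UGT71B7. Scaling by library size only shifted the median of all genes by 0.12 on the log2 scale. Each gene's percent of the summed level per length is the same from TPM by construction, since both use the same reads and effective length. The share of a gene within its tandem or sister pair moved by less than the spread between replicates when taken from TPM instead of reads. The levels themselves are on another scale in TPM and were not compared. Read numbers limit UGT71B6, UGT71B8, UGT75B2 and UGT84B1.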
